A study of Mus musculus with 60 samples.

Results

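The 10 genes described here mark astrocytes, the star-shaped glial cells of the brain, and were measured in hippocampus of 30-week-old mice. The 10 genes were taken by name from a table of 24508 gene symbols: Slc1a2, Slc1a3, Glul, Aqp4, Gja1, Gjb6, Aldh1l1, S100b, Gfap and Vim. All 10 are in the table and all 10 passed the filter on low values, among 14446 genes that did. Wild-type (WT) mice were compared with R6/1 mice, which carry a transgene of the first exon of human huntingtin with an expanded CAG repeat and model Huntington's disease. Both genotypes are on a cross of CBA and C57BL/6 and no treatment is given in the labels. RNA-seq was made from frozen hippocampus of 9 WT and 9 R6/1 biological replicates, and lamin B1 domains, which map chromatin at the nuclear lamina, came as 1 list per genotype. Levels are RPKM (reads per kilobase of transcript, scaled for depth). The transgene is carried by every cell of the R6/1 mouse, neurons and glia alike. In bulk tissue, fewer astrocytes and less of a transcript per astrocyte cannot be told apart.

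Astrocytes clear glutamate from synapses, convert it to glutamine, buffer potassium and move water at their endfeet on blood vessels. They are joined into a network by gap junctions made of connexins. Genes for these duties are often called homeostatic. In injury and disease astrocytes can become reactive, a state whose usual marker is the intermediate filament gene Gfap, often together with Vim. Several of these genes are not confined to astrocytes: Vim is also made by endothelial, mural, microglial and ependymal cells, and Glul and S100b also by oligodendrocytes.

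The astrocyte genes were lower in R6/1, Gfap with them. With p-values from limma adjusted across the whole table and a threshold of 0.05, 7 of the 10 fell (Slc1a2, Slc1a3, Aqp4, Gja1, Aldh1l1, S100b and Gfap), 1 rose (Gjb6) and 2 did not pass (Glul and Vim). Among all 14446 genes tested, 23.5% fell and 24.8% rose. The median log2 fold change of the 10 genes was -0.41, against 0.0036 for all genes tested. By the adjusted p of the authors' deposited table, 8 of the 10 were lower, Glul included, and Gjb6 was higher, where 20.4% of all genes with an adjusted p were lower and 20.0% higher.

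Read totals on genes lay between 12299434 and 16736544 per library, and each of the 10 genes had at least 467 reads in every library. The part of counting error in the spread between libraries was not measured. A pair of libraries stood apart. WT replicate 5 had the highest Gfap and Vim of the WT libraries. In the same library the summed level of 4 ependymal markers was the highest in WT (23.8 RPKM, WT median 11.0), as was that of 5 leptomeningeal markers (56.6 RPKM, median 33.4). So were the sums of microglia (209 RPKM, median 165) and mural cell markers (68.2 RPKM, median 56.0), and those of the pan-reactive (91.6 RPKM, median 46.2) and A1 reactive lists (77.0 RPKM, median 58.1). R6/1 replicate 5 had the highest R6/1 level of 6 of the 10 genes (Slc1a2, Slc1a3, Aqp4, Gja1, S100b and Gfap), and also the highest R6/1 sums of oligodendrocyte (1106 RPKM, median 837), microglia (180 RPKM, median 140), endothelial (105 RPKM, median 81.3) and mural cell markers (50.7 RPKM, median 39.2). Its neuron marker sum of 1983 RPKM was the R6/1 median, and its Slc1a2 (376 RPKM) and Gja1 (92.2 RPKM) lay below every WT library. The part of these differences in the results was not tested beyond the values given with and without the 2 libraries.

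**Figure D1:**
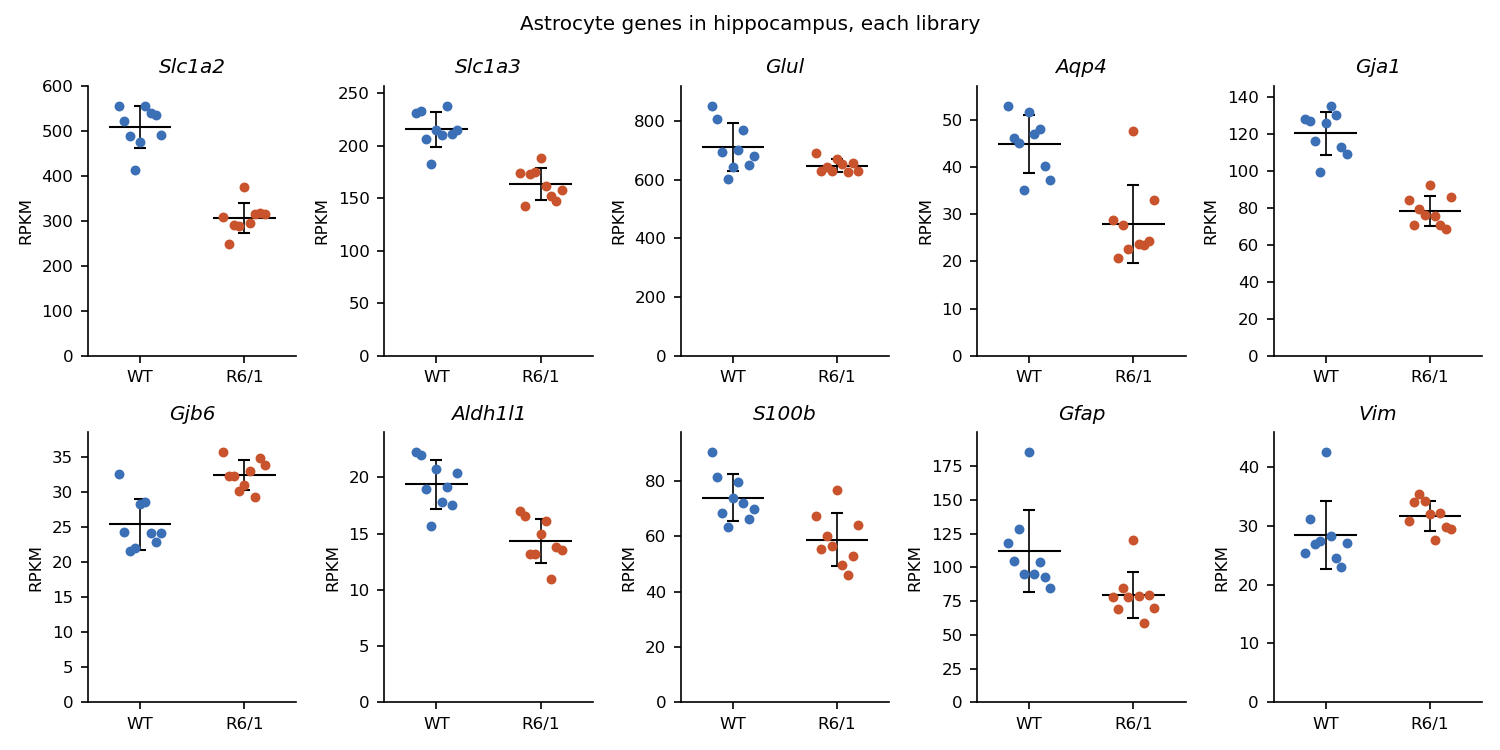
RPKM of each astrocyte gene (vertical axis, from 0) in the 9 WT (blue) and 9 R6/1 (orange) libraries; each point is a library, the line is the mean and the bar is 1 SD. Slc1a2 and Gja1 are lower in all R6/1 libraries than in any WT library, Gjb6 is higher in R6/1, and the highest WT point of Gfap is 185 RPKM.

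By level, Glul was the most abundant of the 10 in both genotypes and ranked 22 among the 14446 genes tested. Slc1a2 ranked 68 and Slc1a3 ranked 235, so the genes of glutamate handling led the list. Gja1 and Gfap came next and their libraries overlapped in both genotypes. S100b, Aqp4, Vim, Gjb6 and Aldh1l1 followed in WT. Among these WT neighbours S100b and Aqp4 did not overlap, whereas S100b overlapped with Gfap, Aqp4 with Vim, Vim with Gjb6 and Gjb6 with Aldh1l1. In R6/1 Gjb6 stood before Vim and Aqp4 in this order, but the libraries of the 3 genes overlapped there. Aldh1l1 had the lowest mean of the 10 in both genotypes.

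Among the genes of glutamate handling, Slc1a2 fell most. It encodes GLT-1, the transporter that takes up most glutamate in the forebrain. Slc1a2 measured 413 RPKM in the lowest WT library, 523 at the median and 556 in the highest, against 249, 310 and 376 RPKM in R6/1. No R6/1 library reached the lowest WT library. The mean fell by 39.7%, from 509 ± 46.8 to 307 ± 33.8 RPKM (SD, n = 9 each). On the log2 scale this was a change of -0.73 (SE 0.066, limma adjusted p 2.6e-08). Only 1.87% of the genes tested had a smaller adjusted p. Slc1a3, which encodes the second astrocyte glutamate transporter GLAST, ran from 183 to 238 RPKM in WT (median 215) and from 143 to 188 in R6/1 (median 162). In 8 of the 9 R6/1 libraries it lay below every WT library, and R6/1 replicate 5 alone overlapped. Its log2 fold change was -0.40 (SE 0.055, limma adjusted p 6.8e-06). The ratio of Slc1a2 to Slc1a3 within a library was 2.22 to 2.65 in WT and 1.65 to 2.15 in R6/1, with no overlap. This ratio and 3 others given below were chosen after the values were seen and carry no test.

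Glul, which encodes glutamine synthetase, the enzyme that turns glutamate into glutamine, differed far less. Its WT libraries ran from 603 to 850 RPKM (median 692) and its R6/1 libraries from 624 to 689 (median 642), so that every R6/1 library lay within the WT range. Its change of -0.13 on the log2 scale (SE 0.056, 95% interval -0.24 to -0.01) did not pass (limma adjusted p 0.0647). The direction turned under quantile normalization (0.07), and the authors' deposited table gave Glul an adjusted p of 0.0425. The spread of Glul was smaller in R6/1, with a coefficient of variation of 3.38% against 11.4% in WT. The ratio of Glul to Slc1a2 was 1.21 to 1.54 in WT and 1.78 to 2.53 in R6/1, with no overlap.

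The water channel gene and the main connexin gene fell, while the second connexin gene rose. Aqp4 encodes aquaporin-4, the water channel of astrocyte endfeet. It measured 35.1 RPKM in the lowest WT library, 46.1 at the median and 52.9 in the highest, and 20.8, 24.3 and 47.7 RPKM in R6/1. Of the R6/1 libraries 8 lay below every WT library, and R6/1 replicate 5, at 47.7 RPKM, lay above the WT median. The log2 fold change of Aqp4 was -0.70 (SE 0.124, limma adjusted p 1.1e-04), and -0.80 without R6/1 replicate 5.

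Gja1 encodes connexin 43, the most abundant astrocyte connexin. Gja1 ran from 99.4 to 135 RPKM in WT (median 126) and from 68.4 to 92.2 in R6/1 (median 76.3), with no overlap. Its log2 fold change was -0.62 (SE 0.064, limma adjusted p 1.4e-07). Slc1a2 and Gja1 were the 2 of the 10 genes whose genotypes did not overlap, both lower in R6/1, where 6.38% of all genes tested were lower and 5.50% higher without overlap. Gjb6 encodes connexin 30, which joins the same cells. Gjb6 ran from 21.6 to 32.6 RPKM in WT (median 24.2) and from 29.3 to 35.6 in R6/1 (median 32.2). In 4 R6/1 libraries it lay above every WT library, and WT replicate 1 was the highest WT library. Gjb6 rose by 0.35 on the log2 scale (SE 0.067, limma adjusted p 2.1e-04). The ratio of Gjb6 to Gja1 was 0.186 to 0.254 in WT and 0.335 to 0.509 in R6/1, with no overlap.

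Since the connexin pair and the filament pair each hold a gene that fell and one that did not, the bases just before their starts are shown. Each window is the 250 bases before the transcription start that RefSeq gives the gene, written 5′ to 3′ on the gene's strand and placed on build NCBIM37 (mm9) by exact match. Capitals mark matches, on either strand, to 4 motifs: the STAT motif TTCNNNGAA, the NFI half-site TTGGC, the AP-1 motif TGANTCA and the TATA box TATAAA.
Gja1, chr10:56096856-56097105, plus strand: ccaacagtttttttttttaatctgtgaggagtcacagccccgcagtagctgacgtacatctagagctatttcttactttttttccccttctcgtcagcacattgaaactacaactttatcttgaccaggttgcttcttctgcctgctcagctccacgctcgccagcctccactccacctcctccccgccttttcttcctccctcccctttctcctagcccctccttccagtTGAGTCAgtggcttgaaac
Gjb6, chr14:57752449-57752698, minus strand: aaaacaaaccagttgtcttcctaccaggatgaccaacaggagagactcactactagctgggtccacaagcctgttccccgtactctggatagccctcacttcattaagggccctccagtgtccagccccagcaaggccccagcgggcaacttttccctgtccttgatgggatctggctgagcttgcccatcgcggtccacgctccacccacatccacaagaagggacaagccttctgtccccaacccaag
Gfap, chr11:102758515-102758764, minus strand: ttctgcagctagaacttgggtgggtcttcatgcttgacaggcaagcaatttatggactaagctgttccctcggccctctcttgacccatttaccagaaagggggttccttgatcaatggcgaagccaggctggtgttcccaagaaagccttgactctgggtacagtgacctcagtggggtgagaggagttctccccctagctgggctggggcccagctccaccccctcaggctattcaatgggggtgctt
Vim, chr2:13495688-13495937, plus strand: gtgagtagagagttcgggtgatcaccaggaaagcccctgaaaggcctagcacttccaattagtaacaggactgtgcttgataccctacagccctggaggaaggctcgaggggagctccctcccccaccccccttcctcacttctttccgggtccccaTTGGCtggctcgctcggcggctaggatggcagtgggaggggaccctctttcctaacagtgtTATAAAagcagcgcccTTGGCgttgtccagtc
Of 32851 such windows of the RefSeq table, 7.02% hold the STAT motif, 41.5% the NFI half-site, 6.75% the AP-1 motif and 12.4% the TATA box. The Gja1 window holds 1 AP-1 match that begins 19 bases before the start. The Vim window holds a TATA box match 32 bases before the start and NFI half-sites at 93 and 16 bases. The Gjb6 and Gfap windows hold no match to these letters. A match describes the sequence only and was not tested as a site. The windows of Gfap and Vim lie within the span that GENCODE gives the gene, because an annotated transcript starts further upstream. Windows were found for 9 of the 10 genes, and the single STAT match among these was in that of Slc1a3, 96 bases before its start.

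The enzyme and calcium-binding markers fell as well. Aldh1l1 encodes a folate enzyme that marks nearly all astrocytes. It ran from 15.7 to 22.2 RPKM in WT (median 19.1) and from 11.0 to 17.0 in R6/1 (median 13.8), and 6 R6/1 libraries lay below every WT library. Its log2 fold change was -0.42 (SE 0.077, limma adjusted p 1.5e-04). S100b encodes a small calcium-binding protein. It ran from 63.4 to 90.2 RPKM in WT (median 71.9) and from 46.1 to 76.7 in R6/1 (median 56.4), and changed by -0.33 on the log2 scale (SE 0.084, limma adjusted p 0.00268). R6/1 replicate 5, the highest R6/1 library for S100b, lay above the WT median.

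Gfap, the reactive marker, was lower and not higher in R6/1. It encodes glial fibrillary acidic protein, the main intermediate filament of mature astrocytes. Gfap measured 84.7 RPKM in the lowest WT library, 104 at the median and 185 in the highest, and 59.1, 78.0 and 120 RPKM in R6/1. In 7 R6/1 libraries Gfap lay below every WT library. The R6/1 libraries that overlapped with WT were replicates 3 and 5, and replicate 3 exceeded the lowest WT library by a small margin (84.8 against 84.7 RPKM). The log2 fold change of Gfap was -0.48 (SE 0.131, limma adjusted p 0.00505). It was -0.38 without WT replicate 5 (limma adjusted p 0.00594) and -0.55 without R6/1 replicate 5 (limma adjusted p 7.4e-04). With the level of 4 ependymal markers as a covariate, a fit chosen after seeing the data, Gfap no longer passed (log2 fold change -0.32, limma adjusted p 0.0663). With that of 8 oligodendrocyte markers, also chosen after seeing the data, its change was -0.28 (limma adjusted p 0.323). Vim encodes vimentin, a filament protein found with Gfap in reactive astrocytes. It ran from 23 to 42.4 RPKM in WT (median 27.0) and from 27.5 to 35.3 in R6/1 (median 31.9), and its change of 0.17 on the log2 scale (SE 0.085) did not pass (limma adjusted p 0.108). The 42.4 RPKM came from WT replicate 5, and without that library Vim passed at 0.24 (limma adjusted p 0.00173). Scaling by the sum of each library's own reads also let Vim pass (0.24, limma adjusted p 0.0306).

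**Figure D2:**
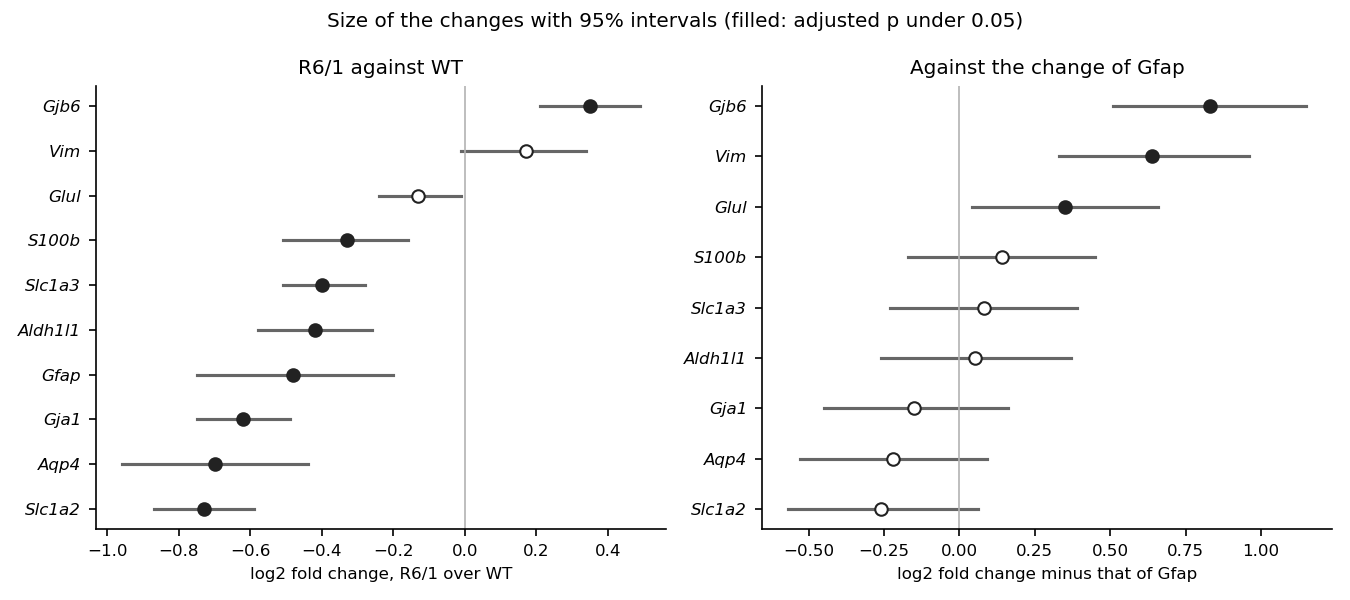
Log2 fold change of each astrocyte gene in R6/1 against WT (left) and the same minus the change of Gfap (right), with 95% intervals; filled points have a limma adjusted p under 0.05. On the left 7 genes lie below 0 with filled points and Gjb6 above 0; on the right Gjb6, Vim and Glul lie above the change of Gfap.

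Whether the homeostatic genes changed differently from Gfap was tested inside each library, where any scaling of a library cancels. For each gene tested, the log2 value minus that of Gfap was compared between genotypes. Because Gfap itself fell, 67.2% of all 14445 other genes lay above its change and 1.64% below it. Of the 8 homeostatic genes 2 differed from Gfap, both above it. Gjb6 differed by 0.83 on the log2 scale (95% interval 0.51 to 1.15, limma adjusted p 2.1e-05). Glul differed by 0.35 (interval 0.04 to 0.66, limma adjusted p 0.0425), a call that was lost without WT replicate 5 (0.24, limma adjusted p 0.0753) and in 9 other fits that left out 1 library (WT replicate 3 or 4, or R6/1 replicate 1, 2, 4, 6, 7, 8 or 9). Vim, the other filament gene, differed by 0.64 (interval 0.33 to 0.96, limma adjusted p 4.5e-04).

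For the other 6 homeostatic genes no difference from the fall of Gfap was detected, and the intervals were wide. The difference was -0.26 for Slc1a2 (interval -0.57 to 0.06, limma adjusted p 0.135), -0.22 for Aqp4 (-0.53 to 0.09) and -0.15 for Gja1 (-0.45 to 0.16). It was 0.05 for Aldh1l1 (-0.26 to 0.37), 0.08 for Slc1a3 (-0.23 to 0.39) and 0.14 for S100b (-0.17 to 0.45). Without WT replicate 5, the library with the highest Gfap, Slc1a2 fell more than Gfap (difference -0.36, limma adjusted p 0.00902), as did Aqp4 (-0.29, limma adjusted p 0.0329). With the replicate number as a block in the fit both also passed (limma adjusted p 0.010 for Slc1a2 and 0.041 for Aqp4). The Gfap to Slc1a2 ratio was 0.170 to 0.388 in WT (median 0.201) and 0.187 to 0.318 in R6/1 (median 0.268), with overlap. The ratio of Vim to Gfap was 0.209 to 0.318 in WT and 0.266 to 0.544 in R6/1.

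**Figure D3:**
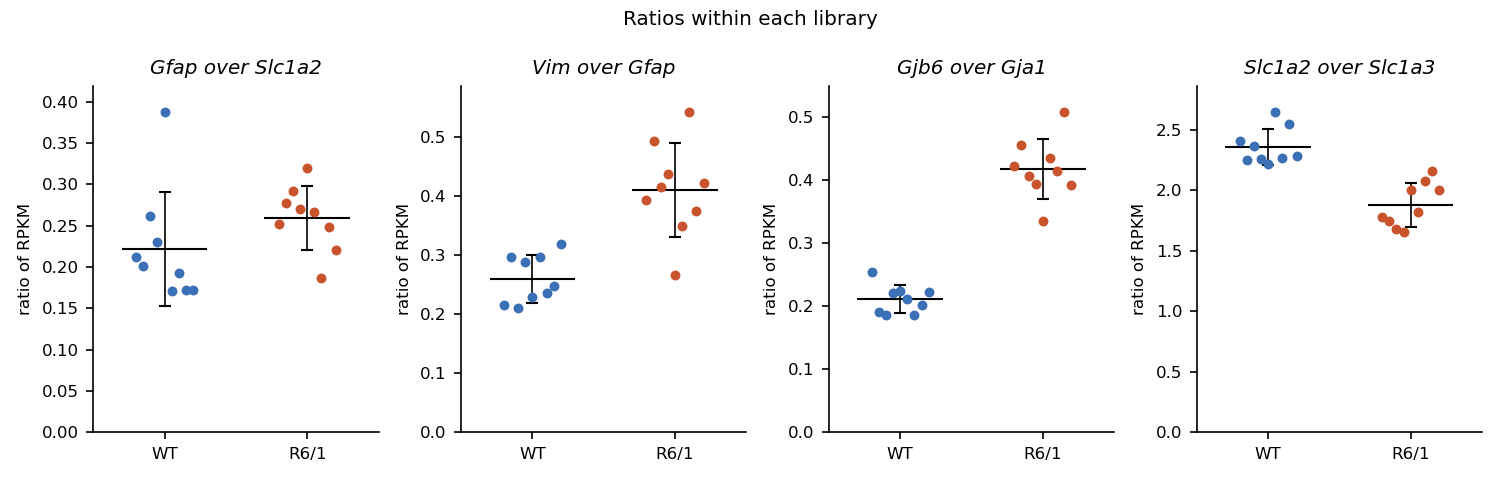
Ratio of RPKM of gene pairs within each library (vertical axis, from 0) in WT (blue) and R6/1 (orange); points are libraries, the line is the mean and the bar is 1 SD. The genotypes do not overlap for Gjb6 over Gja1 (0.186 to 0.254 in WT, 0.335 to 0.509 in R6/1) or Slc1a2 over Slc1a3, and overlap for Gfap over Slc1a2 and Vim over Gfap.

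Other astrocyte genes fell together with these. A further 72 astrocyte genes on 5 lists, with none of the 10 among them, were examined. The lists were written from general knowledge but with earlier results of these data known, so their counts are not independent support. Of these genes 50 fell and 3 rose (23.5% and 24.8% of all genes tested), with a median log2 fold change of -0.29 (0.0036 for all genes tested). Of the 72, 18 lay below WT without overlap and 0 above (6.38% and 5.50% of all genes tested).

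All 15 genes of transport and ion homeostasis fell (median -0.46). The largest falls were those of Grm3, a metabotropic glutamate receptor (16.4 ± 1.92 to 8.91 ± 2.09 RPKM, SD, n = 9 each, log2 fold change -0.86), Slc7a10, an amino acid transporter (-0.82), and Slc14a1, a urea transporter (-0.82). Kcnj10, the main potassium channel of astrocytes, named after its value was seen, went from 61.7 to 45.3 RPKM (log2 fold change -0.45). Of 14 surface proteins 10 fell and 0 rose, led by the endothelin receptor gene Ednrb (19.6 to 9.78 RPKM, -0.98), Ntsr2 (-0.64) and the sphingosine receptor gene S1pr1 (-0.63).

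Of 13 secreted proteins 8 fell and 1 rose. Mfge8, a phagocytosis bridging protein, fell from 98.4 to 51.9 RPKM (log2 fold change -0.93). Chrdl1 changed by -0.66 and Sparcl1 by -0.48, whereas Sparc, which is also made by endothelial cells and microglia, rose from 109 to 146 RPKM (0.42). Of 17 genes of metabolism 10 fell and 1 rose. Fabp7, a lipid carrier also made by neural progenitors, fell from 32.0 to 13.1 RPKM (-1.26), Dio2, which activates thyroid hormone, changed by -0.86, and Pla2g7 by -0.71, while Prodh, the proline oxidase gene, rose by 0.25. Of 13 transcription factors 7 fell and 1 rose, all by less than the transporters named above. Sox9, an astrocyte identity factor, changed by -0.34, Nfib by -0.32 and Gli3 by -0.29. Stat3, which drives Gfap in reactive astrocytes, rose by 0.14 (11.4 to 12.7 RPKM, limma adjusted p 0.0300).

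The partners of Aqp4 and of the connexins were examined in the same way. The counts that follow stand beside 23.5% of all genes tested that fell and 24.8% that rose. Of 7 genes of the complex that anchors Aqp4 at endfeet 5 fell and 0 rose (median -0.20), with Agrn, which encodes agrin of the basement membrane, at -0.35 and Sntb1 at -0.30. Of 9 tested connexins and pannexins other than Gja1 and Gjb6, 4 fell and 0 rose, so that Gjb6 was the one connexin of the tested set that rose. Gjb2, a connexin of astrocytes and meninges, changed by -0.45 and the neuronal Panx2 by -0.46. Among 8 other intermediate filament genes 3 fell and 0 rose: Nes, the nestin gene of progenitors and reactive astrocytes (2.43 to 1.46 RPKM, -0.62), and the neuronal Nefl (-0.32) and Nefm (-0.22).

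Of 8 other genes of glutamate transport and glutaminase 3 rose and 1 fell (24.8% and 23.5% of all genes tested). The genes that rose were Slc1a6, a glutamate transporter of neurons (4.37 to 7.36 RPKM, 0.69), and the glutamine transporters Slc38a2 (0.56) and Slc38a1 (0.42). All 3 were higher without overlap, as were 5.50% of all genes tested. The vesicular transporter gene Slc17a7 fell from 605 to 440 RPKM (-0.46).

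**Figure D4:**
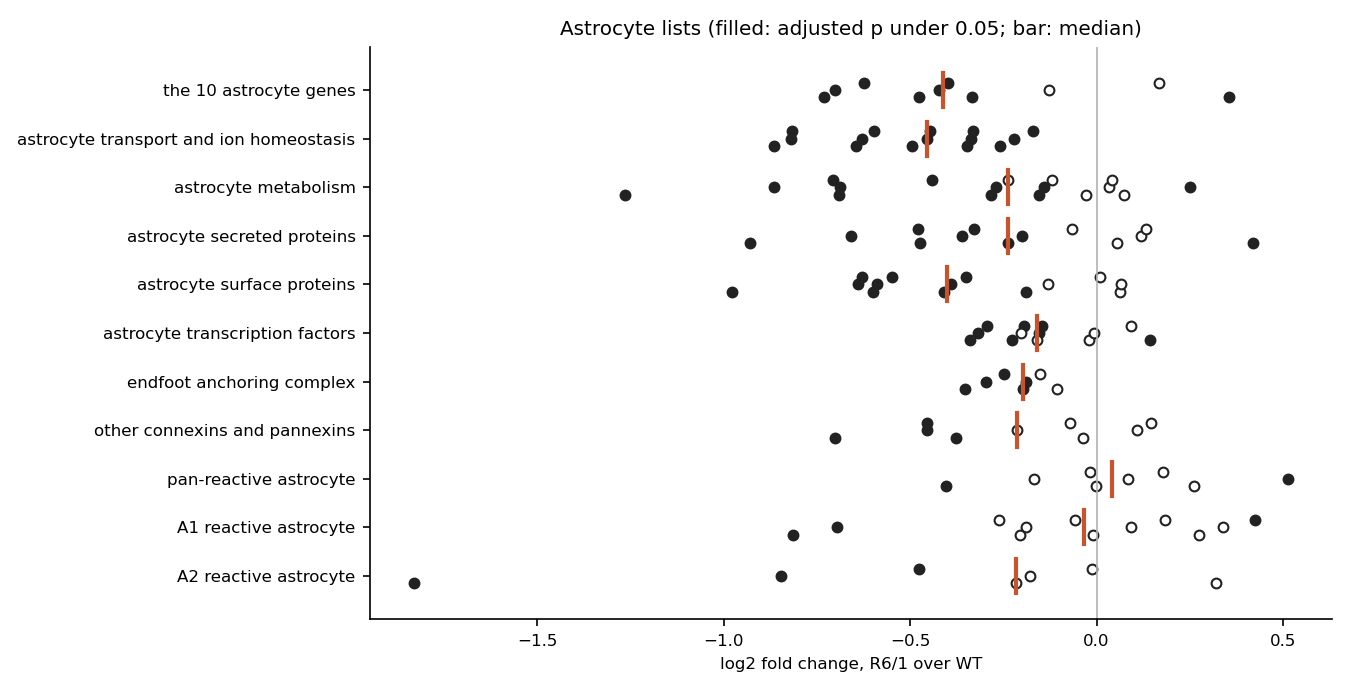
Log2 fold change in R6/1 against WT of the 10 astrocyte genes and of the tested genes of 10 related lists; each point is a gene, filled where the limma adjusted p is under 0.05, and the orange bar is the median of the list. The transport list lies wholly below 0 (median -0.46), and the pan-reactive and A1 lists lie on both sides of 0 (medians 0.04 and -0.03), as does the A2 list (median -0.22).

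Calls on the reactive astrocyte lists were few and went both ways. Of 36 genes on 3 reactive lists 27 passed the filter on low values, and of these 2 rose and 6 fell (median -0.02). Among all genes tested 24.8% rose and 23.5% fell, so the share that fell was near that of all genes and the share that rose was below it. On the pan-reactive list, which holds genes raised by several kinds of injury, Cp (ceruloplasmin) rose from 3.07 to 4.55 RPKM (0.51) and Cd44 fell from 1.27 to 0.806 RPKM (-0.40). The remaining 6 tested genes did not pass. Among them were Serpina3n (35.1 ± 16.4 RPKM in WT, 39.7 ± 18.1 in R6/1, SD, n = 9 each, limma adjusted p 0.648) and Lcn2 (limma adjusted p 0.869), both named after their values were seen. On the A1 list Psmb8 rose (0.42) and Amigo2 (-0.69) and the complement gene C3 (-0.81, 0.882 to 0.213 RPKM) fell. On the A2 list 3 of 7 tested genes fell and 0 rose (median -0.22), and its summed level did not overlap between genotypes (28.5 to 46.9 RPKM in WT, 21.9 to 27.8 in R6/1). Ptgs2, which in hippocampus is chiefly an activity-regulated gene of neurons, changed by -1.83 (8.51 to 2.01 RPKM), Cd109 by -0.84 and Tm4sf1 by -0.47. Ptgs2 is part of the summed level, and whether the sum separates the genotypes without it was not examined. Microglia, endothelial cells and neurons also express many genes of these lists.

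Markers of every other cell type examined but choroid plexus included genes that fell, where 23.5% of all genes tested fell. The median log2 fold change was -0.30 for neuron, -0.34 for oligodendrocyte, -0.24 for microglia and -0.19 for endothelial markers. It was -0.27 for mural cells, -0.64 for ependyma, -0.33 for oligodendrocyte precursors, -0.21 for leptomeninges and -0.06 for neural progenitors. That of choroid plexus was 0.11, and that of the 72 other astrocyte genes was -0.29. Of 8 neuron markers 7 fell and 1 rose, and their summed level did not overlap between genotypes (2302 to 2746 RPKM in WT, 1907 to 2058 in R6/1). Of 8 oligodendrocyte markers 6 fell (sum 1045 to 1341 RPKM in WT, 636 to 1106 in R6/1). The counts of genes that fell were 4 of 8 for microglia (sum 143 to 209 RPKM in WT, 115 to 180 in R6/1), 3 of 7 for endothelium (71.0 to 115 and 70.3 to 105 RPKM) and 2 of 4 for mural cells (43.9 to 68.2 and 34.8 to 50.7 RPKM). They were 2 of 4 for ependyma (4.97 to 23.8 and 4.65 to 10.9 RPKM), 2 of 4 for oligodendrocyte precursors (27.2 to 31.4 and 20.5 to 29.7 RPKM), 1 of 5 for leptomeninges (25.1 to 56.6 and 22.7 to 40.8 RPKM) and 1 of 3 tested for neural progenitors (7.08 to 10.5 and 7.41 to 10.6 RPKM). No gene of these 7 lists rose. The 6 choroid plexus markers had no call but ranged from 25.6 to 1075 RPKM in WT and from 38.8 to 1743 in R6/1, and with their level as a covariate 7 of the 10 genes fell and 1 rose as before. With the level of the oligodendrocyte markers as a covariate 3 of the 10 genes fell (Slc1a2, Slc1a3 and Gja1) and 1 rose. Aqp4 (-0.49), Aldh1l1 (-0.23), S100b (-0.17) and Gfap (-0.28) no longer passed in that fit. With the level of the neuron markers, which separates the genotypes, 0 passed. The changes of Gfap (-0.51), Gja1 (-0.54) and Gjb6 (0.38) were of similar size to those without it. Those of Slc1a2 (-0.51) and Aqp4 were smaller than without it (-0.73 and -0.70). That of S100b was -0.07 there. These covariates differ between genotypes themselves, so their part and that of the genotype cannot be told apart.

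Over the 18 libraries, with each genotype's mean removed, the genes of the list varied together to different degrees, which is described here without a test because libraries share depth scaling and dissection. Gja1, Aqp4 and S100b were most alike, with r from 0.81 to 0.85 between them. Slc1a2 had r of 0.74 with Aqp4 and 0.68 with Gja1, but 0.21 with Gfap. The value with Gfap was 0.43 without WT replicate 5, -0.09 without R6/1 replicate 5 and 0.08 without both. Without both, Slc1a2 had r of 0.69 with Aqp4 and 0.63 with Gja1. Gfap had r of 0.66 with Aqp4 and 0.54 with Vim. The value for Gfap and Vim rests on WT replicate 5, the highest WT library for both, and was 0.04 without it. Without both libraries numbered 5, Gfap had r of 0.42 with Aqp4 and 0.02 with Vim, and Gja1, Aqp4 and S100b had r from 0.75 to 0.86. Vim had r of -0.29 with Slc1a2 and -0.21 with Glul. Without WT replicate 5 these values were -0.27 and 0.05, so that with Glul rests on this library. Among all genes tested, the genes most like Gfap were Pbxip1 (r = 0.93), Trim12c (0.85), Tcn2 (0.84), Pdpn (0.82) and Lcp2 (0.81). Those most like Slc1a2 were Sash1 (r = 0.87), Nwd1 (0.85), Arhgef12 (0.85), Sptbn1 (0.84) and Itpr2 (0.83). The genes most like Gfap and Slc1a2 were not sought again without the libraries numbered 5.

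**Figure D5:**
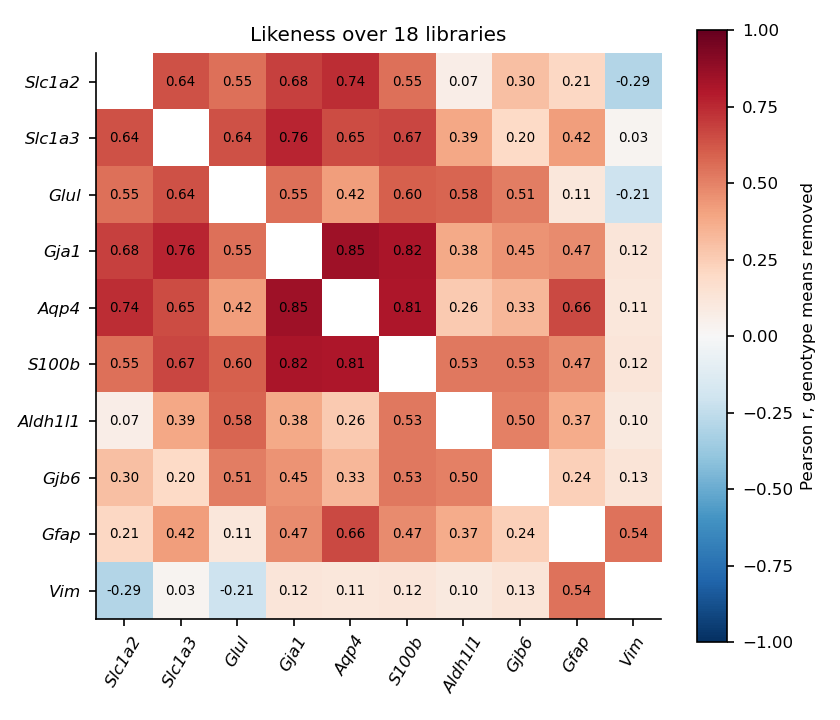
Pearson r between the astrocyte genes over 18 libraries after the mean of each genotype was removed, on log2(RPKM + 0.5); rows and columns are genes and the colour scale runs from -1 to 1. Gja1, Aqp4 and S100b form the block with the highest values (0.81 to 0.85), and Vim lies between -0.29 and 0.13 with the homeostatic genes and at 0.54 with Gfap, a value that is 0.04 without WT replicate 5.

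The positions of the genes relative to lamin B1 domains were read on build NCBIM37. The domains were called from chromatin of all hippocampal cells, each ChIP replicate a pool of 5 mice, so they do not show astrocyte nuclei alone, and with 1 list per genotype they have no replicate spread. The starts of 8 of the 10 genes lay in no domain of either genotype, at distances from 0.44 Mb (Slc1a3 to the nearest R6/1 domain) to 9.45 Mb (Gfap to the nearest R6/1 domain). Of 12827 tested genes placed on the annotation, 86.6% lay in no domain, so this count is near that of all genes. Slc1a3 lay 4.22 Mb from the nearest WT domain.

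Gja1 (chromosome 10, 56097106 to 56110225, plus strand, 2 exons) had its start in a domain of both genotypes, from 44881001 to 57572000 in WT (12.69 Mb) and from 54020001 to 57202000 in R6/1 (3.18 Mb). At a mean of 99.3 RPKM it ranked 26 among 979 tested genes with their start in domains of both genotypes, whose median was 6.14 RPKM. Aqp4 (chromosome 18, 15547903 to 15562193, minus strand, 6 exons) had its start in a WT domain of 16.28 Mb (15392001 to 31672000) and lay 1.42 Mb from the nearest R6/1 domain. At 36.4 RPKM it ranked 79 among 692 tested genes with their start in WT domains alone (median 7.03 RPKM), and its transcript was lower in R6/1. Slc1a2 (chromosome 2, 102498816 to 102630941, plus strand, 12 exons in its longest transcript) lay 1.16 Mb from a WT and 1.19 Mb from an R6/1 domain. Gfap (chromosome 11, 102748650 to 102762226, minus strand, 9 exons) and Gjb6 (chromosome 14, 57742140 to 57752448, minus strand, 3 exons) lay far from domains in both genotypes, Gjb6 at 6.36 Mb in WT and 6.40 Mb in R6/1. Annotated genes lie opposite Slc1a2, Glul, Aldh1l1, S100b and Gfap. Strand use in the counting is not given in the sources used here, so reads of such pairs may not be told apart.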

How the data were processed

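Stranded mRNA libraries were made from 9 WT and 9 R6/1 hippocampi, per the labels' protocols. The authors deposited RPKM values, with TopHat, DESeq2 and build mm9 named in the submitters' processing notes; the counter and annotation are not given in the sources used here. A second table deposited by the authors compares the genotypes, with a mean normalized count (a signal) per gene, its log2 fold change and SE, a score from the test, and the p-value before and after adjustment. The deposited domain lists give 1 score per domain, which was not used. Steps of the values gave back whole reads for 99.86% to 99.91% of values above 0, within 0.05 of a read.

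Libraries were grouped by genotype, and 0 columns were left unused. Each gene was tested with limma 3.58.1 (R 4.3.3; lmFit, eBayes with trend) on log2(RPKM + 0.5), two-sided, over the 14446 genes whose mean reached 0.5 RPKM, with Benjamini-Hochberg adjustment over all of them and a threshold of 0.05. The same fit was run on each gene's log2 value minus that of Gfap. Fold changes on this scale understate those of low genes. Both fits were run on simulated data, in which genes were drawn independently of each other and Gfap was left unchanged. That setting differs from these data, where Gfap fell, so it does not test the fit against Gfap under such a fall. The genes and lists were chosen with earlier results of these data known. Named genes are the 10 members, up to 3 called genes per direction and list with the largest change, and the 5 genes most like Gfap and Slc1a2; some genes that this rule names are not reported here. Promoter windows are RefSeq's (GRCm38.p6). No label says whether replicate numbers shared by both genotypes pair the libraries. In a check 3 of 9 pairs correlated over 0.1, and they were not treated as pairs. The check cannot show that they are unpaired. Alternatives were other pseudocounts, filters, scalings, covariates, weights, voom on recovered reads, the replicate block and leaving out each library.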

Additional observations from a re-analysis of the deposited data

Results flagged for a closer look

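In 4 of 20 groups of 9 libraries (10 genes in 2 genotypes) 1 library was far above the other 8 of its genotype, judged by its gap over the whole range (Dixon's test). Chance alone would give about 1 group with a library far above or far below the others. The groups share the same libraries and their genes vary together, so the 4 are not separate events. All 4 came from the 2 libraries numbered 5. In WT replicate 5 Gfap was at 185 RPKM, with the next WT library at 128, and Vim at 42.4 RPKM, with the next at 31.2. In R6/1 replicate 5 Gfap was at 120 RPKM, with the next R6/1 library at 84.8, and Aqp4 at 47.7 RPKM, with the next at 33.0. These values rest on between 1228 (Vim) and 11902 (Gfap in WT) reads. Without both libraries 8 of the 10 genes passed as lower in R6/1, Glul among them, and 2 passed as higher, Vim among them.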

How the results depend on the processing

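With each library left out in turn, 7 to 8 of the 10 genes passed as lower and 1 to 2 as higher, and 1 to 3 of the 8 homeostatic genes differed from Gfap. The second gene that rose was Vim, without WT replicate 5. The difference from Gfap ranged from -0.0178 to 0.1284 for Slc1a3 and from -0.0280 to 0.1218 for Aldh1l1, the lowest without WT replicate 5 and the highest without R6/1 replicate 5. Without both of these libraries, a setting chosen after seeing the data, 2 genes rose and 4 homeostatic genes differed from Gfap. With no filter on low values and with no trend 1 homeostatic gene differed. The replicate block was run because no label says whether the numbers pair the libraries. With it 4 homeostatic genes differed from Gfap (Gjb6, Glul, Slc1a2 and Aqp4). It let Glul pass as lower (limma adjusted p 0.0493) and gave Gfap a limma adjusted p of 6.0e-05. Scaling to own totals let 2 genes rise, and quantile normalization turned Glul to 0.0750.

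The marker covariates were also chosen after seeing the data. The oligodendrocyte covariate left 1968 genes higher and 1948 lower in the whole table, 3 of the 10 lower and 0 homeostatic genes that differed from Gfap, and turned Slc1a3 minus Gfap to -0.1589. The ependymal covariate let 2 genes rise and turned Slc1a3 minus Gfap to -0.0986 and Aldh1l1 minus Gfap to -0.0654. The neuron covariate left 899 genes higher and 734 lower. Of the 10 it left 0 higher and 0 lower, with 0 homeostatic genes that differed from Gfap, although Gfap was at -0.51 and Gjb6 minus Gfap at 0.89, as large as without it. Slc1a2 was at -0.51, a smaller change than without it (-0.73). The neuron covariate turned Glul to 0.1016, Vim to -0.3055 and Aqp4 minus Gfap to 0.0608. For these turns and losses the cause was not tested. Depth did not limit the 10 genes, but low genes of the reactive lists rest on few reads.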
